A study of Homo sapiens with 24 samples.

Results

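The cyclin-dependent kinase (CDK) inhibitor genes CDKN1A, CDKN1B, CDKN1C, CDKN2B, CDKN2C and CDKN2D were followed through knockdown of TFAP2C, which encodes the transcription factor AP-2gamma, in human breast carcinoma lines that the study describes as HER2-positive. The 6 genes were taken by name from 27431 gene symbols, and they hold 17 of the 66321 RefSeq accessions of each genome-wide comparison. RNA was sequenced from 24 samples in 8 groups of 3. Control groups (siNT) of the lines SKBR3, HCC1954 and HCC1569 received a non-targeting siRNA and knockdown groups (siAP2C) a TFAP2C siRNA, all with a lipid reagent and a 72 to 96 h incubation. In HCC1954 a further pair consisted of stable cell clones made with a lentivirus, carrying a negative control shRNA (shNT) or a TFAP2C shRNA (shAP2C). In that pair an effect of the shRNA and a difference between clones cannot be told apart. All cells were between passages 5 and 10, and per the labels the lines were not authenticated by the submitters.

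CDK inhibitors hold back the cell cycle by binding CDKs or their cyclin complexes. The CIP/KIP proteins p21 (CDKN1A), p27 (CDKN1B) and p57 (CDKN1C) bind complexes of cyclins with several CDKs, and p21 is the best known product of p53-driven transcription and can also bind PCNA. The INK4 proteins p15 (CDKN2B), p18 (CDKN2C) and p19 (CDKN2D) bind CDK4 and CDK6 and keep D-type cyclins from activating them. CDKN2B is a known target of TGF-beta signalling, and p27 is controlled largely through degradation by the SKP2 ubiquitin ligase, which RNA does not show.

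The values are the authors' deposited FPKM (fragments scaled for transcript length and library size), 1 per entry and group with the samples pooled, so no FPKM below has a replicate spread, and whether groups overlap sample by sample cannot be seen. A gene's level is its FPKM summed over accessions, and its ratio is knockdown over control. Only single accessions were tested. A gene is said to rise or fall where the q-value of one of its accessions in the authors' deposited table was under 0.05. Whether the 3 samples per group were separate cultures is not said, so p-values reflect only their spread, possibly technical. Sequencing depth is unknown. In bulk RNA, fewer cells of a type and less RNA per cell cannot be told apart.

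TFAP2C itself fell in each genome-wide comparison, 2.92-fold in SKBR3 (157 to 53.9 FPKM), in HCC1954 given siRNA (92.4 to 22.0 FPKM) and 23.4-fold in the HCC1954 clones (81.0 to 3.46 FPKM). The HCC1569 table holds 68 selected genes, among them CDKN1A and no other of the 6 inhibitors, and it has no TFAP2C entry, so the knockdown in that line was not checked here. Of 6 epithelial markers, EPCAM, KRT8 and KRT18 were between 105 and 2137 FPKM in all 6 genome-wide groups, and the others varied. CDH1 (E-cadherin) was under 1 FPKM in both SKBR3 groups and fell from 149 to 20.7 FPKM in the shRNA pair. KRT19 was at 7.51 and 4.01 FPKM in the HCC1954 siRNA control and knockdown. Of 10 leukocyte, endothelial and fibroblast markers, 8 to 10 were under 1 FPKM in each group, their summed level was 1.04 and 2.80 FPKM in SKBR3 control and knockdown, 29.1 and 21.3 with siRNA in HCC1954, and 13.1 and 1.89 with shRNA, and PTPRC, the pan-leukocyte marker, did not exceed 0.0694 FPKM. Most of the sum in 3 of the 4 HCC1954 groups was PECAM1, which fell to 18.5 FPKM (control 26.96) after siRNA and to 0.0180 FPKM (control 11.6) in the shRNA clone. In that clone the sum was mostly COL1A1, at 1.69 FPKM (control 0.283) and not tested. The shRNA groups differed widely: the cytokeratin gene KRT7 fell from 639 to 0.550 FPKM and KRT19 rose from 19.9 to 634 FPKM. Both groups are called HCC1954 from their labels. Whether the knockdown cells are that line was not tested, so each shRNA ratio below compares the cells labelled shAP2C with those labelled shNT. The part of these marker differences in the inhibitor results of that pair was not tested.

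No inhibitor gene was called in all 3 genome-wide comparisons (0 of 6). The share of all symbols called in all 3 was not computed. It cannot be large, since with siRNA in HCC1954 only 3.27% of tested symbols were called. The calls of each comparison come first, and the tests of the differences between comparisons follow gene by gene. None of the 6 member accessions tested in both siRNA comparisons differed between SKBR3 and HCC1954 by the normal test described below (adjusted p of 0.717 or more). Of those 6, the leading accessions of CDKN1A and CDKN2B had unadjusted p-values of 0.0170 and 0.0109 in that normal test. With errors taken from the deposited p, 2 of the 6 passed, where 8.05% of all accessions did. In SKBR3, CDKN2B rose and CDKN2C fell, so 1 of 5 tested members rose and 1 fell, against 13.5% and 21.6% of all tested symbols (35.3% called either way). By accession, 2 of 7 tested member entries rose and 1 fell, where 9.81% and 15.3% of all 15184 tested entries did (25.1% in all). In HCC1954 given siRNA, CDKN1A rose and none of the other 4 tested members was called, where 2.29% of symbols rose and 0.975% fell (3.27% in all). Of 8 member entries tested there, 1 rose and 0 fell, against 1.42% and 0.608% of all entries (2.03% in all). With shRNA in HCC1954, CDKN1A and CDKN1B rose and CDKN2B, CDKN2C and CDKN2D fell, which is 2 rises and 3 falls among 6 tested members where 37.2% of symbols rose and 39.9% fell (78.5% in all). Of 7 member entries 3 rose and 3 fell, against 31.4% and 34.9% of all entries (66.3% in all). The members' share of calls in the shRNA pair was thus near its background.

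**Figure D1:**
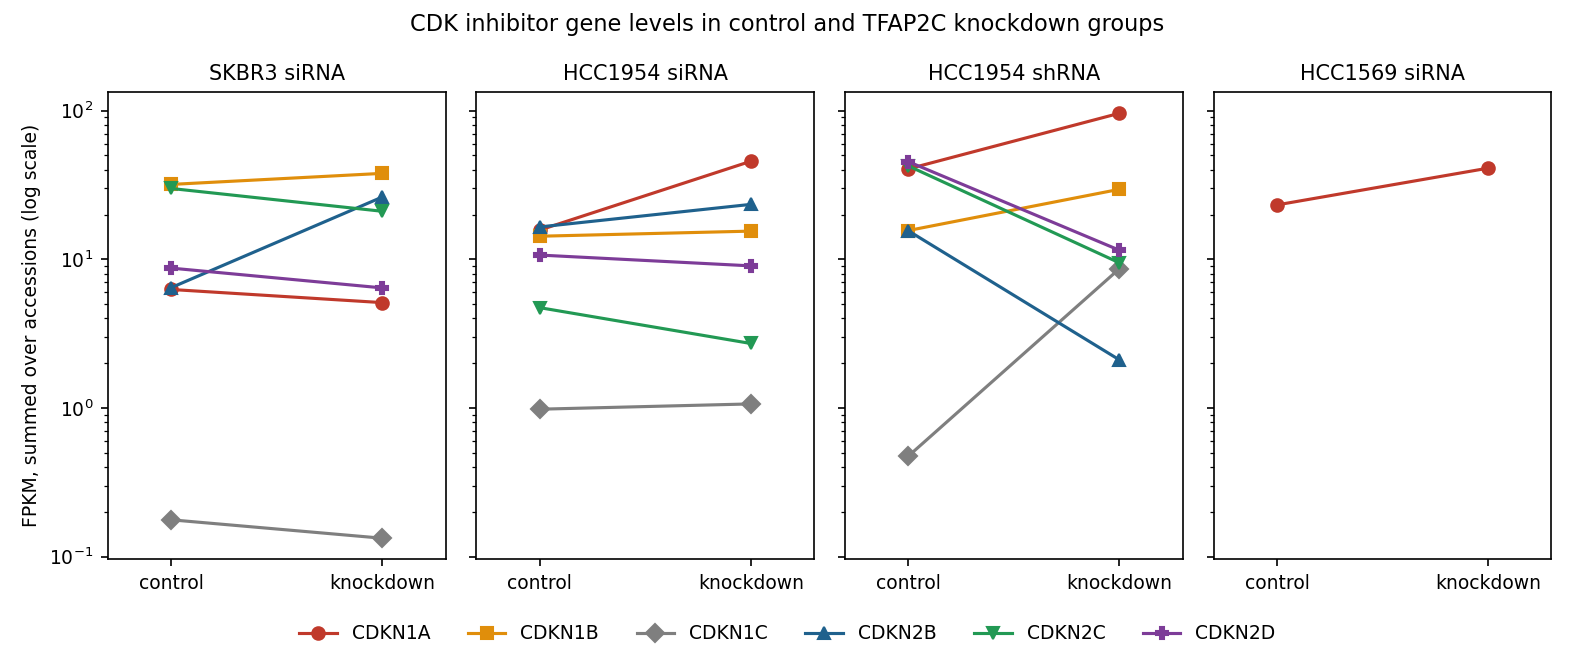
Summed FPKM (log axis) of the 6 CDK inhibitor genes in the control and knockdown group of each comparison, 1 pooled value per group, joined by a line per gene and without error bars because the samples are pooled. CDKN1A goes up in both HCC1954 pairs and in HCC1569 and is lower, at 5.11 against 6.27 FPKM and not called, in SKBR3. CDKN2B goes up steeply in SKBR3 and down with shRNA in HCC1954.

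CDKN1A (chromosome 6, 36644237 to 36655116 on the plus strand, GRCh37) rose in HCC1954 and HCC1569 and was not called in SKBR3. Its summed level was 6.27 FPKM in SKBR3 control cells and 5.11 after siRNA. In HCC1954 it was 15.7 FPKM in the siRNA control and 45.7 after TFAP2C siRNA, a 2.90-fold higher level, and 40.6 in the shRNA control and 96.1 with TFAP2C shRNA, 2.37-fold higher. In HCC1569 it rose from 23.2 to 41.0 FPKM, or 1.77-fold (q = 0.00139 in the authors' deposited table). In the HCC1954 siRNA pair only 38 of 11068 symbols had a larger ratio, while with shRNA 1076 of 9551 did. In the HCC1569 table the ratio was unremarkable for that selection: 24 of its 46 tested genes had a larger one, and 67.4% of them were called, 56.5% upward.

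The CDKN1A signal came mainly from the accession NM_000389. It held 64.0% of the gene's FPKM in SKBR3 control cells and 88.0% in the HCC1954 shRNA control, but 54.6% in the HCC1954 siRNA control, where NM_001220777 held 36.0%. In HCC1954 given siRNA, NM_000389 rose from 8.59 to 38.8 FPKM, a log2 ratio of 2.17 with a standard error of 0.88 (q = 0.00425 in the authors' deposited table). NM_001220777 went from 5.67 to 3.36 FPKM there and was not called (q = 0.871). The log2 ratio of the leading accession, 2.17, was thus above the 1.54 of the summed gene. Cuffdiff divides reads that accessions share, and the part of that division in these values was not tested. With shRNA, NM_000389 rose from 35.7 to 83.6 FPKM (log2 ratio 1.23, standard error 0.24, q = 0.000121), and NM_001220778 rose from 3.15 to 12.2 FPKM (q = 0.00198). In SKBR3, NM_000389 was at 4.01 and 3.21 FPKM (log2 ratio -0.32, 95% interval -1.44 to 0.79, q = 0.405), and the gene's other 4 accessions were not tested. The standard errors are the log2 ratio over the deposited statistic, and the deposited p-values do not follow from those errors alone. They are smaller for some entries, such as NM_000389 with siRNA in HCC1954, and larger for others, such as the tested CDKN1C accession with shRNA. For HCC1569 the interval from the statistic, -0.71 to 2.35, holds 0 although the deposited q is under 0.05. An antisense gene, DINOL, overlaps CDKN1A, and no source used here states whether counting used strand, so reads of the pair cannot be told apart.

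The difference between lines depended on the error used. The log2 ratio of NM_000389 in SKBR3 minus that with siRNA in HCC1954 was -2.50 (95% interval -4.55 to -0.45), with an adjusted p of 0.929 by a two-sided normal test adjusted over 12403 accessions by Benjamini-Hochberg. An exact test over samples could not be made on pooled values. With that error taken from the deposited p-value instead, the adjusted p was 0.00224. However, the deposited Cuffdiff p-values go no lower than 5e-05, the value of NM_000389 with siRNA in HCC1954. An error derived from that smallest p is fixed by the size of the ratio and does not measure spread. The other called leading accessions of the 6 genes in the genome-wide comparisons are at the same value. The first version calls 41 accessions, or 0.331%, and the second 999, or 8.05%. Between siRNA and shRNA in HCC1954 the ratio of NM_000389 differed by 0.95 (95% interval -0.84 to 2.73, adjusted p of 0.789, or 0.210 with the error from p), so the interval leaves room for a sizeable difference either way. SKBR3 minus HCC1954 shRNA was -1.55 (adjusted p of 0.0600, or 0.000580 with the error from p).

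**Figure D2:**
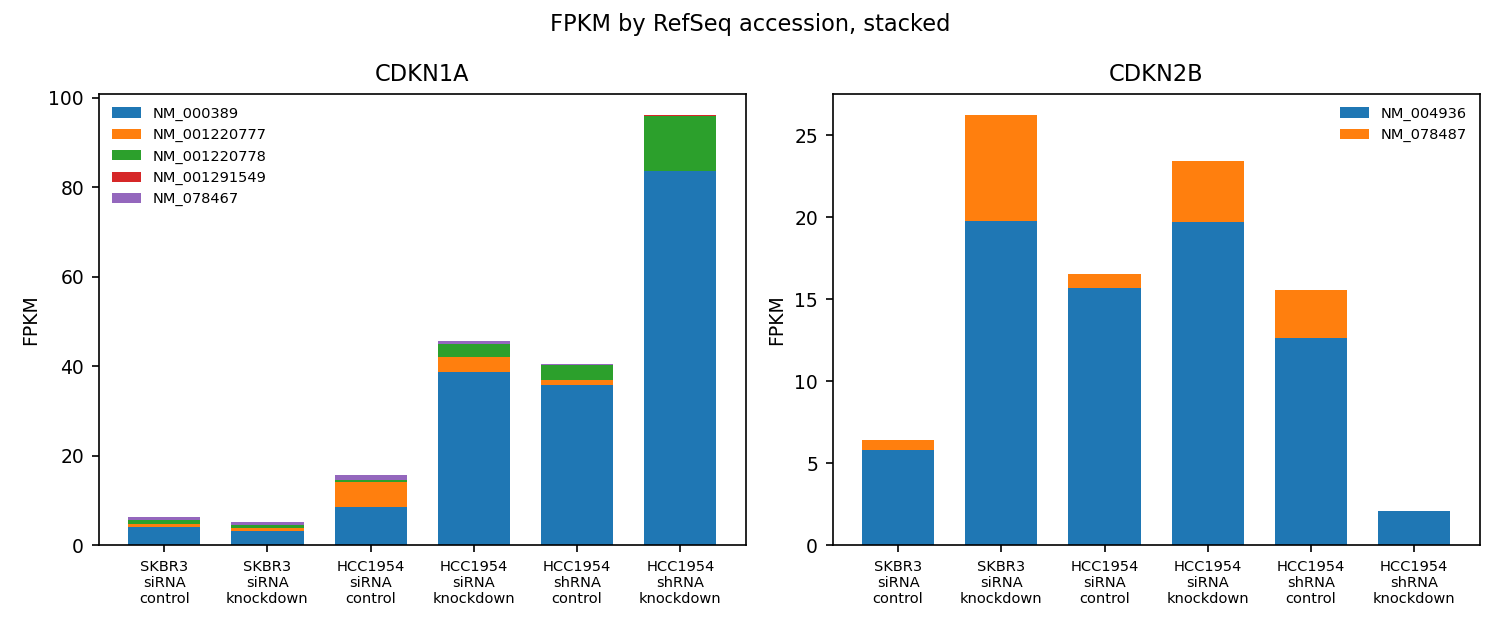
FPKM of each RefSeq accession of CDKN1A (left) and CDKN2B (right), stacked from 0, in the 6 genome-wide groups, 1 pooled value per group. NM_000389 makes up most of CDKN1A in every group, least in the HCC1954 siRNA control, and NM_078487 grows from 0.607 to 6.48 FPKM in SKBR3.

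The promoter of CDKN1A is shown because it is the leading member and AP-2 factors bind GC-rich elements. The 250 bases before its start are those of RefSeq (GRCh38.p14, chr6:36678464-36678713, plus strand), 5′ to 3′, with capitals marking GGGCGG, a core of Sp1-type sites.
CDKN1A: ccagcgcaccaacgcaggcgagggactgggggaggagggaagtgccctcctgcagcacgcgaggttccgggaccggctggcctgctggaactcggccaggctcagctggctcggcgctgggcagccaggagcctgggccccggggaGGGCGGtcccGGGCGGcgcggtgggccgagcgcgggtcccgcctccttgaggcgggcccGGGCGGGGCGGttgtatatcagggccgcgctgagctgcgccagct
The motif GGGCGG, searched on both strands as GGGCGG or CCGCCC, started at 4 positions, 104, 94, 45 and 40 bases before the start, with the last pair overlapping by 1 base. In all, 42.6% of 35116 promoter windows of that length held it. The palindromic AP-2 consensus GCCNNNGGC, held by 19.8% of windows, had no match in this window or in the windows of CDKN1B, CDKN2B, CDKN2C (3 starts) and CDKN2D, and its variant with 4 bases between GCC and GGC, held by 18.6%, had none in CDKN1A. No other form of AP-2 site was searched, so a lack of these motifs does not show a lack of AP-2 sites. No binding was measured, and the windows say nothing about more distant elements.

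CDKN1B (chromosome 12, 12870204 to 12875316, plus strand, GRCh37), the p27 gene, had 1 accession and was the most abundant inhibitor in SKBR3. It was at 31.9 FPKM in SKBR3 control cells and 37.9 after siRNA, a log2 ratio of 0.25 with a standard error of 0.19 and a q of 0.0524 in the authors' deposited table, just above the threshold. With siRNA in HCC1954 it was at 14.3 and 15.5 FPKM (q = 0.843). With shRNA it rose from 15.6 to 29.6 FPKM, 1.89-fold (log2 ratio 0.92, standard error 0.21, q = 0.000121). The ratio with shRNA differed from that in SKBR3 by 0.67 in size, with an adjusted p of 0.0871 in the normal test, and of 0.0155 with the error from p. The 2 HCC1954 controls, 14.3 and 15.6 FPKM, lay close together, although the tables were normalized separately.

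CDKN1C (chromosome 11, 2904448 to 2906995, minus strand, GRCh37), the imprinted p57 gene, was the least abundant member in 5 of the 6 groups. Its summed level was 0.177 and 0.133 FPKM in SKBR3 and 0.981 and 1.06 FPKM with siRNA in HCC1954, where none of its 5 accessions was tested. With shRNA it went from 0.474 to 8.65 FPKM, an 18.2-fold ratio. The single tested accession, NM_001362475, went from 0.426 to 6.04 FPKM and was not called (p = 0.240, q = 0.289 in the authors' deposited table), although its ratio of 3.82 on the log2 scale was 2.50 times its standard error. Its neighbour PHLDA2, also imprinted, fell in SKBR3 (44.2 to 23.6 FPKM) and rose in HCC1954 after siRNA (13.9 to 23.7 FPKM) and in the shRNA clone (32.3 to 81.5 FPKM). In HCC1569 PHLDA2 rose from 8.80 to 18.8 FPKM.

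CDKN2B (chromosome 9, 22002902 to 22009304, minus strand, GRCh37), the p15 gene, moved in opposite directions in SKBR3 and with shRNA in HCC1954. In SKBR3 its summed level rose from 6.45 to 26.2 FPKM, 4.07-fold, and 41 of 10046 symbols had a larger ratio. In HCC1954 given siRNA it was at 16.5 and 23.4 FPKM, not called. With shRNA it fell from 15.6 to 2.10 FPKM, a 7.39-fold lower level. After TFAP2C siRNA the SKBR3 and HCC1954 levels, 26.2 and 23.4 FPKM, were near each other, since SKBR3 started lower. Both accessions rose in SKBR3. NM_004936 went from 5.84 to 19.8 FPKM (log2 ratio 1.76, standard error 0.37, q = 0.000441 in the authors' deposited table) and NM_078487 from 0.607 to 6.48 FPKM (q = 0.0353). NM_078487 held 9.42% of the gene's FPKM in SKBR3 control cells and 24.7% after siRNA.

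The opposite directions of CDKN2B were tested as differences. The log2 ratio of NM_004936 was higher in SKBR3 than with shRNA in HCC1954 by 4.35 (95% interval 2.97 to 5.72, adjusted p of 1.62e-08 by the normal test), where 19.4% of 11467 accessions differed. Within HCC1954 it was higher with siRNA than with shRNA by 2.92 (95% interval 1.49 to 4.34, adjusted p of 0.00143), where 9.7% of 11562 accessions differed. Between SKBR3 and HCC1954 siRNA the difference of 1.43 had an adjusted p of 0.717, and of 0.0341 with the error from p. In the deposited tables the CDKN2B accessions carry a locus that runs from 21967138 to 22121093 and takes in overlapping transcripts of other genes. Among them is CDKN2A, on the same strand, and its part in the CDKN2B values was not tested. The antisense gene CDKN2B-AS1, listed at 0.556 to 1.91 FPKM in the 6 groups and not tested, overlaps CDKN2B. MTAP, further along the chromosome, rose in SKBR3 (12.5 to 22.0 FPKM) and in the shRNA pair (31.4 to 96.3 FPKM), where CDKN2B fell.

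The promoter windows of CDKN2B and CDKN2D are shown because they hold the AP-2 variant with GCC and GGC 4 bases apart, which the windows of CDKN1A, CDKN1B and CDKN2C lack. CDKN1C had no window and was not searched. They are from RefSeq (GRCh38.p14, chr9:22009306-22009555 and chr19:10568980-10569229, both minus strand), 250 bases before the start, 5′ to 3′, with capitals marking that motif from GCC to GGC.
CDKN2B: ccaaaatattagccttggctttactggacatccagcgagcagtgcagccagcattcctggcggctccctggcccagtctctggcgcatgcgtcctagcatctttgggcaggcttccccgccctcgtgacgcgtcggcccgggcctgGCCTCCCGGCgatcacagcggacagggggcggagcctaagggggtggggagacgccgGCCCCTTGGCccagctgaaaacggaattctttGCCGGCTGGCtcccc
CDKN2D: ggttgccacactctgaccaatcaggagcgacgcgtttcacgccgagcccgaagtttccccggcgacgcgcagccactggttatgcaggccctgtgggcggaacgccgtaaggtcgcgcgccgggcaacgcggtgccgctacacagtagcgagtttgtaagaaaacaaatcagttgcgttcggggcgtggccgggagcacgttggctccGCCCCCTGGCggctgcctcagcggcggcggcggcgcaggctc
CDKN2B held 3 matches, starting 104, 47 and 15 bases before the start, and CDKN2D held 1, starting 42 bases before it. In SKBR3 CDKN2B rose and CDKN2D was not called, and with siRNA in HCC1954 neither was called. With shRNA both fell, CDKN2B from 15.6 to 2.10 FPKM and CDKN2D from 45.4 to 11.5 FPKM. A link between the motif and these ratios was not tested.

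CDKN2C (chromosome 1, 51434367 to 51440309, plus strand, GRCh37), the p18 gene, was lower after knockdown in all 3 genome-wide comparisons, and fell by the test in 2 of them. Its summed levels were 29.96 and 21.05 FPKM in SKBR3, 4.73 and 2.71 FPKM in HCC1954 given siRNA, and 42.5 and 9.46 FPKM in the shRNA pair. NM_001262 fell in SKBR3 from 27.5 to 17.1 FPKM (log2 ratio -0.69, standard error 0.24, q = 0.000441 in the authors' deposited table) and with shRNA from 39.9 to 8.03 FPKM (log2 ratio -2.31, standard error 0.32, q = 0.000121). With siRNA in HCC1954 the same accession was at 2.85 and 1.78 FPKM (log2 ratio -0.68, 95% interval -2.53 to 1.16, q = 0.623). The ratio there was nearly that of SKBR3, at a far lower level. The minor accession NM_078626 was at 2.45 and 3.99 FPKM in SKBR3 (q = 0.339) and untested elsewhere. The shRNA ratio was lower than that of SKBR3 by 1.62 (adjusted p of 0.000469), and the comparison with siRNA in HCC1954 gave an adjusted p of 0.443, or 0.0468 with the error from p.

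CDKN2D (chromosome 19, 10677138 to 10679655, minus strand, GRCh37), the p19 gene, fell only with shRNA by the deposited test. It was at 8.73 and 6.42 FPKM in SKBR3, at 10.7 and 9.03 FPKM in HCC1954 given siRNA, and fell from 45.4 to 11.5 FPKM with shRNA, 3.94-fold. NM_079421, which holds nearly all of the signal, had log2 ratios of -0.42 (q = 0.126), -0.24 (q = 0.759) and -1.95 (q = 0.000121, standard error 0.37) in the authors' deposited tables. The shRNA ratio was lower than that of SKBR3 by 1.53 (adjusted p of 0.0343), and lower than that of siRNA in HCC1954 by 1.71 (adjusted p of 0.0606, or 0.00495 with the error from p).

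**Figure D3:**
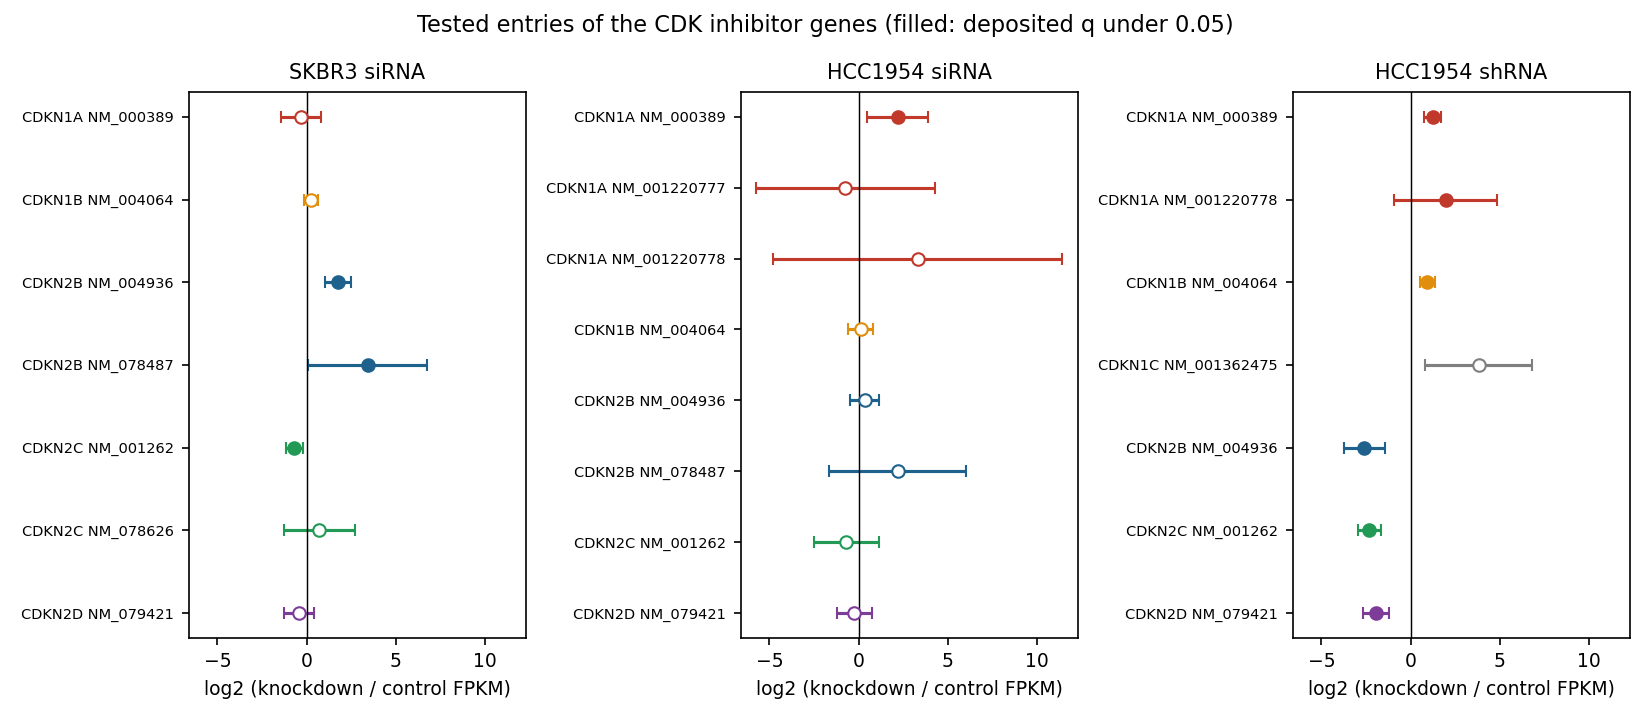
Log2 ratio of knockdown over control FPKM for each tested accession of the 6 genes in the 3 genome-wide comparisons, with bars for the 95% interval from the deposited statistic and filled points for a deposited q under 0.05. Intervals of minor accessions are wide, such as -4.81 to 11.4 for NM_001220778 of CDKN1A with siRNA in HCC1954, and in the shRNA pair the 3 called INK4 entries lie left of 0 while the called CIP/KIP entries lie right of it.

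The shRNA control stood apart from the siRNA control of the same line in several members. CDKN2C was at 4.73 FPKM in the HCC1954 siRNA control and 42.5 in the shRNA control, CDKN2D at 10.7 and 45.4, and CDKN1A at 15.7 and 40.6. CDKN2B, at 16.5 and 15.6 FPKM, and CDKN1B did not show such a gap. CDKN1C went the other way, at 0.981 FPKM in the siRNA control and 0.474 in the shRNA control, both low. Across 11679 symbols the median ratio of the shRNA control to the siRNA control was 1.03-fold, with quartiles of -0.52 and 0.61 on the log2 scale, so separate normalization of the tables shifted the middle of the data little. The shRNA knockdown levels of CDKN2C and CDKN2D, 9.46 and 11.5 FPKM, were near or above those of the siRNA control. No test was made across tables.

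The order of the 6 genes by FPKM, which is per length, changed with knockdown in HCC1954. In the siRNA control CDKN2B held 26.2% of the 6 genes' summed FPKM and CDKN1B 22.7%, with CDKN1A between them, and after TFAP2C siRNA CDKN1A held 46.9%. With shRNA its part went from 25.3% to 61.0%, as CDKN2D moved from rank 1 to rank 3 and CDKN2C from rank 2 to rank 4. The sum of the 6 genes was 62.9 and 97.4 FPKM with siRNA and 160.1 and 157.4 FPKM with shRNA. In SKBR3 CDKN1B led before and after (38.2% and 39.1%), CDKN2B moved from rank 4 to rank 2, and CDKN1A had rank 5 in both groups. Pooled values give no spread by which neighbours in these orders could be separated.

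Replication and mitosis genes were mostly lower after knockdown in SKBR3, where CDKN2B rose and CDKN1A was not called. A link between these genes and the inhibitors was not tested. Among all tested symbols, 13.5% rose and 21.6% fell in SKBR3, 2.29% and 0.975% with siRNA in HCC1954, and 37.2% and 39.9% with shRNA. Of 18 replication genes driven by E2F, the factor released when CDKs phosphorylate the retinoblastoma protein, 16 fell and 0 rose in SKBR3, with a median log2 ratio of -0.72 against -0.09 for all tested symbols. RRM2, a ribonucleotide reductase subunit, fell from 78.0 to 37.1 FPKM and the factor gene E2F1 from 21.3 to 11.6 FPKM. Of 21 tested G2 and mitosis genes 19 fell and 0 rose (median -0.70), with the phosphatase gene CDC25B from 112 to 49.0 FPKM and the kinase gene PLK1 from 33.4 to 18.1 FPKM. In HCC1954 given siRNA, where CDKN1A rose, the replication list had 1 rise, E2F2 from 2.50 to 4.46 FPKM, and 1 fall, E2F1 from 14.7 to 10.3 FPKM, among 18 (median -0.08). The G2 and mitosis list had 1 fall among 22, PRC1 from 43.1 to 31.8 FPKM, and a median of -0.21 against -0.01 for all symbols. With shRNA the replication list split into 7 rises and 8 falls (median -0.04) and the mitosis list into 11 rises and 9 falls (median 0.09). That is 15 of 18 and 20 of 22 called, where 78.5% of all tested symbols were. There CCNB1, the cyclin B1 gene, went from 73.4 up to 176 FPKM and AURKA from 197 down to 46.0 FPKM. In HCC1569 E2F2 was at 1.93 and 1.81 FPKM and was not tested.

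The counts of the gene lists below are read against all tested symbols, of which 35.3% were called in SKBR3, 3.27% with siRNA in HCC1954 and 78.5% with shRNA. Of 13 tested cyclin, CDK and pocket protein genes in SKBR3, 6 fell and 1 rose (median -0.30): CDK4, the INK4 target, fell from 57.9 to 40.6 FPKM, CCND3 from 43.2 to 28.7 FPKM and PCNA from 183 to 110 FPKM, while CCND1, the cyclin D1 gene, rose from 112 to 156 FPKM. In the HCC1954 siRNA pair 0 of 12 were called in the authors' deposited table (median -0.02). With shRNA 8 of 13 fell and 2 rose (median -0.83), with CCND1 from 459 to 159 FPKM, CCNE2, a cyclin E gene, from 76.3 to 19.5 FPKM and PCNA from 568 to 222 FPKM, whereas CDK4 rose from 82.8 to 103 FPKM. The 10 of 13 partners called with shRNA are near the background share of 78.5%.

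**Figure D4:**
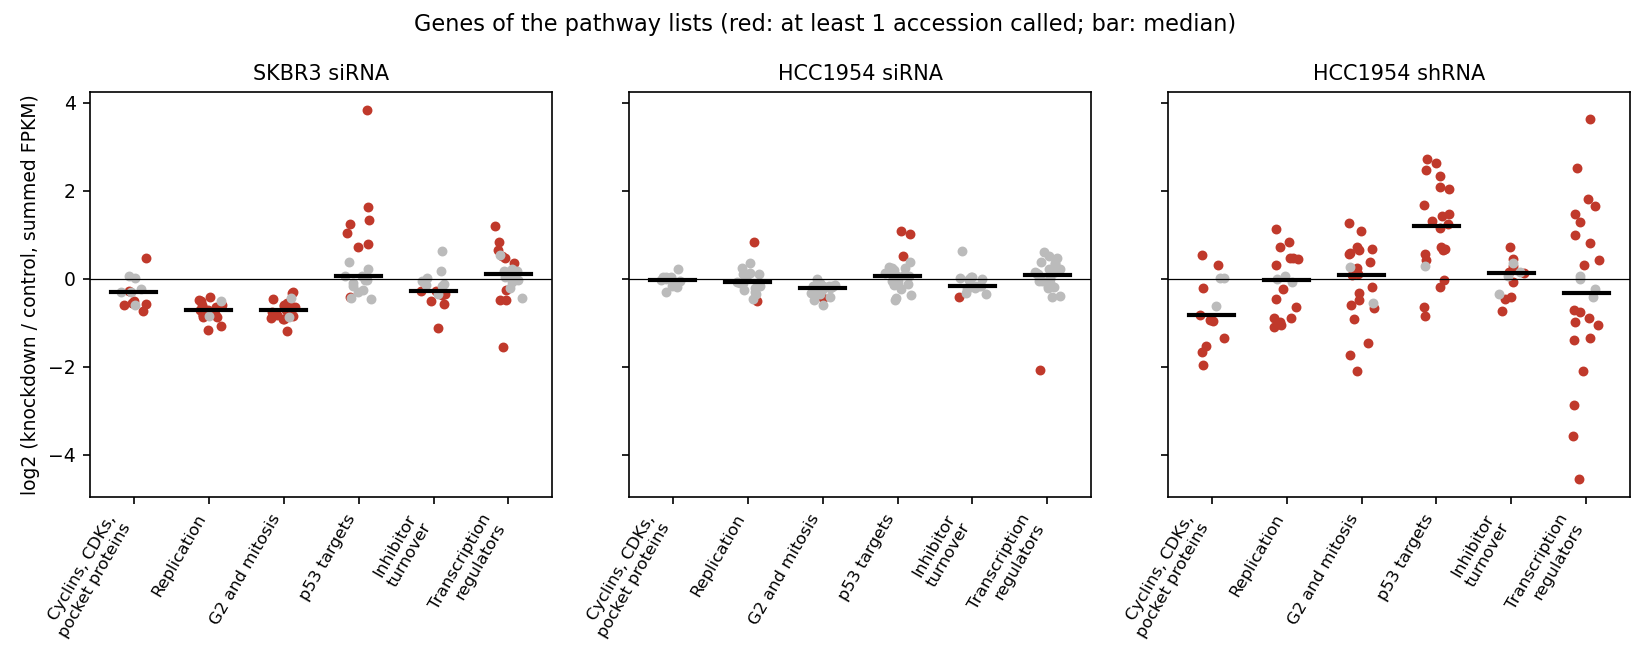
Log2 ratio of summed FPKM for each tested gene of 6 lists (columns) in the 3 genome-wide comparisons, in red where at least 1 accession was called and in grey otherwise, with a bar at the list's median. Replication and mitosis genes lie below 0 in SKBR3 with medians of -0.72 and -0.70, and p53 targets have a median of 1.20 with shRNA. TP63 with shRNA, listed at 0 in the knockdown group, has no ratio and is not drawn.

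Other p53 target genes are given by their calls beside CDKN1A, and a link between them and CDKN1A was not tested. In SKBR3 7 of 20 rose and 1 fell (median 0.06), with GDF15, a stress-induced cytokine, from 11.6 to 165 FPKM, GADD45A, a growth arrest gene, from 18.5 to 43.5 FPKM and the pro-apoptotic BBC3 from 11.5 to 23.4 FPKM, while CDKN1A was not called. After siRNA in HCC1954 3 of 23 rose and 0 fell (median 0.06): GADD45A from 59.3 to 126 FPKM, GDF15 from 386 to 785 FPKM and PHLDA3 from 58.4 to 83.1 FPKM. With shRNA 17 of 22 rose and 4 fell, with a median of 1.20 against -0.03 for all symbols. There MDM2, the p53 ubiquitin ligase gene, rose from 8.18 to 41.0 FPKM, BBC3 from 2.68 to 16.6 FPKM, FDXR from 5.09 to 33.8 FPKM and CCNG1, the cyclin G1 gene, from 26.4 to 108 FPKM.

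Genes that control inhibitor transcription or turnover were counted beside all tested symbols. The regulators had 10 of 22 called in SKBR3, 1 of 25 with siRNA in HCC1954 and 22 of 26 with shRNA, where 35.3%, 3.27% and 78.5% of all symbols were. Each of these counts includes TFAP2C, the targeted gene, whose fall was set by the design. With siRNA in HCC1954 no other regulator was called. Turnover genes had 9 of 13 called with shRNA. Of 15 genes of inhibitor turnover 7 fell and 0 rose in SKBR3 (median -0.28), with SKP2 from 16.4 to 11.03 FPKM, its cofactor gene CKS1B from 140.3 to 99.3 FPKM and DTL, an adaptor of the ligase that degrades p21, from 19.7 to 9.004 FPKM. In HCC1954 given siRNA 1 of 15, SKP1, fell, from 71.5 to 53.6 FPKM (median -0.15), and with shRNA 5 rose and 3 fell of 13 (median 0.13), with SKP2 from 48.2 to 29.2 FPKM. Among transcription regulators of these genes, 6 rose and 4 fell of 22 in SKBR3 (median 0.10), including SMAD3, a mediator of TGF-beta signalling, from 9.46 to 16.9 FPKM and ATF3, a stress-induced factor, from 30.6 to 70.0 FPKM. TFAP2C was the 1 fall of 25 with siRNA in HCC1954 (median 0.09, 0 rises). With shRNA 10 rose and 12 fell of 26 (median -0.33). TFAP2A fell from 25.2 to 3.42 FPKM and CEBPB from 168 to 14.1 FPKM, and EGR1 rose from 4.14 to 23.8 FPKM. TP63, the gene of a p53 family factor of basal epithelium, was at 35.6 FPKM in the control and is listed at 0 in the knockdown clone, a fall by the deposited q, and TP73, of the same family, rose from 0.809 to 10.1 FPKM.

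Neighbouring genes in the genome are given by their calls, and whether they moved with their inhibitor was not tested. In SKBR3 3 of 16 tested neighbours rose and 2 fell, with 1 having entries in both directions, among them GPRC5A, near CDKN1B, from 30.6 up to 86.5 FPKM, and with siRNA in HCC1954 1 rose and 1 fell of 17. SRSF3, next to CDKN1A, had 1 entry that rose and 1 that fell, both in SKBR3 and with shRNA. With siRNA in HCC1954 SRSF3 was at 62.4 and 56.4 FPKM and not called. With shRNA 9 rose and 6 fell of 16, and 1 had entries in both directions, so all 16 were called where 78.5% of symbols were, with AP1M2, near CDKN2D, from 7.83 up to 30.8 FPKM as CDKN2D fell. The 5 symbols nearest to CDKN1A in their 3 log2 ratios, by Euclidean distance among 10206 symbols with at least 1 FPKM in all 6 groups, were RPL13P5, RTN4R, CCDC85B, DNMT3B and DUSP7, at distances of 0.48 to 0.73. RPL13P5 is a ribosomal protein pseudogene whose reads can be shared with close copies, and neither it nor DNMT3B was called in any comparison. RTN4R rose in both HCC1954 pairs, to 5.91 FPKM (control 2.92) after siRNA and to 15.8 FPKM (control 7.45) in the shRNA clone. CCDC85B and DUSP7 rose in both HCC1954 comparisons and fell in SKBR3, CCDC85B from 59.4 to 45.1 FPKM and DUSP7, a MAP kinase phosphatase gene, from 6.51 to 4.57 FPKM. Those 3 are also in the HCC1569 table, where RTN4R rose from 9.59 to 30.4 FPKM and CCDC85B from 16.0 to 89.2 FPKM but DUSP7 fell from 15.6 to 7.30 FPKM.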

How the data were processed

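RNA from cell lines was sequenced with TruSeq libraries, per the labels' protocols. The submitters' processing notes name Bowtie 0.12.2, Cuffdiff without a version, hg19 and GRCh37. The 4 files used hold deposited comparison tables. FPKM, 1 value per entry and group with samples pooled, are the authors' values, per the file headers. The test statistic is a score deposited by the authors, and p-values and q-values are those deposited by the authors. Recomputing q by Benjamini-Hochberg over tested entries of each genome-wide table changed 0 calls. No column holds a single sample, so depth and spread per sample cannot be given, samples entered no model, and 0 columns of single samples were left out. One table names only siNT and siAP2C and was taken as HCC1954 by elimination and from the name the table was deposited under. The HCC1569 coordinates were not used, since its CDKN1A locus is not that of GRCh37.

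Accessions were matched to symbols through RefSeq names (GRCh38.p14), with 65468 of 66321 matched, and FPKM was summed per symbol. Ratios carry no pseudocount. Standard errors are log2 ratio over the deposited statistic. Differences between tables used a two-sided normal test with Benjamini-Hochberg adjustment over all accessions tested in both. The test was run on simulated data beforehand. The simulated noise was drawn from those same standard errors, so that run could not show whether they fit the real data. No control group is shared by tables. Genes were named by rule: TFAP2C, the 6 members, up to 6 called members per list and comparison with the largest ratios and at least 1 FPKM, called neighbours, and the 5 symbols nearest to CDKN1A. TP63, TP73, CDKN2B-AS1, SRSF3 with siRNA in HCC1954 and CDK4 with shRNA fall outside it. So do E2F2 in HCC1569 and the marker genes. These were named after their values were seen. The members and lists were chosen with earlier results of these data known. Alternatives covered the q threshold, the unit of adjustment, low values, the highest accession, a pseudocount, centring and the source of the standard error. Python 3.11.15, pandas 2.3.3, numpy 2.4.6, scipy 1.17.1 and matplotlib 3.10.9 were used.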

Additional observations from a re-analysis of the deposited data

Results flagged for a closer look

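Of 17 tests of a difference between comparisons over accessions of the 6 genes, 4 passed an adjusted p of 0.05. They were 0 of 6 between SKBR3 and HCC1954 siRNA, where 0.331% of all accessions differed, 1 of 6 between HCC1954 siRNA and shRNA, where 9.7% did, and 3 of 5 between SKBR3 and HCC1954 shRNA, where 19.4% did. For NM_004936 of CDKN2B the log2 ratio was higher with siRNA than with shRNA in HCC1954 by 2.92 and higher in SKBR3 than with shRNA in HCC1954 by 4.35. Against the same shRNA comparison SKBR3 was higher by 1.62 for NM_001262 of CDKN2C and by 1.53 for NM_079421 of CDKN2D. All 4 involve the shRNA pair, whose control and knockdown clones also differed in KRT7 (639 and 0.550 FPKM), and the part of that difference in these results was not tested.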

How the results depend on the processing

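Of 125 values recomputed under the alternatives, 110 kept their direction and call or moved by no more than 1 standard error or, for counts, 1.5 times, and 0 changed sign with a call. With 1 p-value per symbol, 2 genes rather than 1 rose in SKBR3, the added gene being CDKN1B. CDKN1C, untested after siRNA, had log2 ratios in SKBR3 of -0.83 by its highest accession, -0.055 with a pseudocount and -0.33 centred, and in HCC1954 of 0.12, 0.060 and 0.12. Where errors came from the deposited p, more accessions differed, among the members and among all. Between SKBR3 and HCC1954 siRNA 2 of 6 member accessions differed rather than 0, where 999 of all accessions (8.05%) did. Between HCC1954 siRNA and shRNA 4 of 6 differed rather than 1, where 4755 (41.1%) did. Between SKBR3 and HCC1954 shRNA 5 of 5 differed rather than 3, where 5982 (52.2%) did. For entries at the smallest deposited p that error is fixed by the ratio, so these counts are no independent measure of spread. At a q of 0.01 the called genes of inhibitor turnover in SKBR3 went from 7 to 3, and with siRNA in HCC1954 the called replication genes from 2 to 1, and those of mitosis, turnover and the neighbours to 0. The pooled FPKM show neither depth nor the effect of single samples, so leaving out replicates was not possible. No paired analysis was possible because the deposited columns pool the samples of each group.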
